A study of Mus musculus with 6 samples.

Results

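The 7 genes described here encode the enzymes, the transporter and the cofactor synthesis around L-arginine in the macrophage. They are Nos2, Ass1, Asl, Odc1, Slc7a2, Sat1 and Gch1. They were chosen by name, and each was found once among the 54446 genes of the count table. RNA was sequenced from BMDMs, macrophages grown for 7 days from the bone marrow of male BALB/c mice aged 6 to 8 weeks in medium with 20% supernatant of L929 cells, a source of the growth factor CSF-1. Unpolarized M0 cells, M1 cells given IFN-γ at 20 ng/mL together with LPS at 50 ng/mL for 24 hours, and M2 cells given IL4 at 20 ng/mL for as long, were compared, each as a control and with regorafenib (1 µM, given 1 hour before polarization). Regorafenib is an inhibitor of several kinases used in liver cancer, and the study asked how it changes macrophage polarization. There was 1 library per condition, and no genetic change was involved.

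Arginine is a substrate that macrophages use in several ways. Nitric oxide synthase makes nitric oxide and citrulline from it, and it also gives rise to ornithine, from which polyamines and proline are built. Mouse macrophages are known for inducing Nos2 with IFN-γ and LPS, and the gene is widely used to mark the M1 state.

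Positions are those of Gencode M21 on GRCm38 and span each gene from its first to its last exon. Nos2, the inducible nitric oxide synthase, lies at chr11:78920787-78960254 on the plus strand. Slc7a2, which encodes the cationic amino acid transporter CAT-2, lies at chr8:40862396-40922308 on the plus strand. Ass1 (chr2:31470207-31520672, plus strand) and Asl (chr5:130011258-130029247, minus strand) encode argininosuccinate synthase and argininosuccinate lyase, which rebuild arginine from citrulline. Odc1 (chr12:17544794-17551505, plus strand) encodes ornithine decarboxylase, the first enzyme of polyamine synthesis. Sat1 (chrX:155213132-155216449, minus strand) encodes the acetyltransferase that starts the breakdown of spermidine and spermine. Gch1 (chr14:47153895-47189413, minus strand) encodes GTP cyclohydrolase 1, the first enzyme in the synthesis of tetrahydrobiopterin, the cofactor of nitric oxide synthase.

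The start regions of all 4 members with a RefSeq entry are shown, because the study followed the factor Creb1, whose binding element is the CRE. Control and regorafenib levels of these 4 differed in M0 beyond counting error, as did those of Slc7a2 and Asl. Each sequence is the 250 bases before the RefSeq start on GRCm38.p6, 5′ to 3′ along the gene, with the CRE core TGACG and the E-box CACGTG in capitals. The windows are chr2:31470020-31470269 on the plus strand for Ass1, chr12:17544623-17544872 on the plus strand for Odc1, chr14:47189414-47189663 on the minus strand for Gch1 and chrX:155216450-155216699 on the minus strand for Sat1.
Ass1: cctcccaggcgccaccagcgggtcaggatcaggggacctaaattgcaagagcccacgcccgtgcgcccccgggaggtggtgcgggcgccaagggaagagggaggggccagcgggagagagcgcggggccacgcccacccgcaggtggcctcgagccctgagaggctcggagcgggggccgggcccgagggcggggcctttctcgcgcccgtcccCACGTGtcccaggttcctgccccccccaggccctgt
Odc1: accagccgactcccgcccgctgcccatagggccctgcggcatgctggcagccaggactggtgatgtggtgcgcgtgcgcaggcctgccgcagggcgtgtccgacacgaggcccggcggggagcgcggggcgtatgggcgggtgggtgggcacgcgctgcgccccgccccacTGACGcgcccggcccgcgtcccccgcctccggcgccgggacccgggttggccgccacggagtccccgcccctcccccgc
Gch1: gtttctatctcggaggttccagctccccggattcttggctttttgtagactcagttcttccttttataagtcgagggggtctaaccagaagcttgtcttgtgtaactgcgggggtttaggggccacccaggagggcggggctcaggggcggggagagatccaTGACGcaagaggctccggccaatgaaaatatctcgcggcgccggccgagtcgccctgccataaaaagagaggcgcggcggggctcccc
Sat1: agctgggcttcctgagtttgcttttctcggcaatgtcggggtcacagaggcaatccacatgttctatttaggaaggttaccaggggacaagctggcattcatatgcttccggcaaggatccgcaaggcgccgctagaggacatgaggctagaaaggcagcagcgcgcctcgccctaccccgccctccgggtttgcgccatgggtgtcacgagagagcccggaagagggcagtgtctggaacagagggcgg
This core begins 79 bases before the start of Odc1, which is also where the Gencode span of that gene begins, and 88 bases before that of Gch1, and 17.8% of 32851 RefSeq promoter windows of this length hold it on either strand. The other motifs searched, each on both strands, were the whole CRE TGACGTCA, found in 1.55% of the windows and containing the core, and the E-box CACGTG, found in 6.02%. The site of STAT factors, TTCNNNGAA, was in 7.02%, and the antioxidant response element, TGACNNNGC, which can overlap the CRE core, was in 10.2%. The TATA box, TATAAA, was in 12.4%, and the CCAAT box was in 33.8%. Sat1 held no match to any of these or to the core. Gch1 also held the CCAAT box 70 bases and the TATA box, on the other strand, 188 bases before its start. Ass1 held no CRE core, and its only match was the E-box, 36 bases before its RefSeq start. The Gencode span of Ass1 begins further upstream, so this E-box lies inside it. Nos2, Asl and Slc7a2 had no entry.

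The libraries held between 25359309 and 34898342 counts. All 10 macrophage markers were above 3 counts in all 6 libraries. The neutrophil marker Ly6g was at 0 in all of them, and the 6 lymphocyte markers were at 3 counts or fewer. The summed level of the 8 neutrophil markers lay between 98.6 and 210 CPM, that of the 7 fibroblast markers between 9.83 and 31.7 CPM, and that of the 6 dendritic cell markers between 0.455 and 38.8 CPM. Some of these sums moved with the drug: the neutrophil sum was 110 CPM in the M0 control against 207 with regorafenib, the fibroblast sum 10.3 against 22.1 in M0 and 9.83 against 19.2 in M2, and the dendritic cell sum 0.685 against 2.75 in M2. In M1 the neutrophil sum was lower with the drug, at 134 CPM against 210, with 2 of the 4 markers that had enough counts called lower. The macrophage sum was 31179 CPM in the M0 control against 49022 with regorafenib, and 22179 against 33827 in M2. Markers of the polarized states moved with the drug too. Of the 8 markers of IL4, 5 were called higher and 1 lower with regorafenib in M2, beside 6.15% and 5.07% of all genes. Their sum in M2 was 837 CPM in the control against 765 with the drug. Of 5 markers of IFN-γ and LPS in M2, 1 was called higher and 2 lower, with a sum of 51.1 CPM against 115. In M1, 1 of 8 of these was called higher and 0 lower, and of 3 IL4 markers 1 was called higher and 1 lower, beside 1.76% and 3.46% of all genes. In M0, where few had enough counts, 2 of 4 IL4 markers were called higher (median log2 ratio 1.05), and 0 of 5 markers of IFN-γ and LPS higher and 3 lower (median −1.73). Of all genes in M0, 9.47% were called higher and 10.9% lower. The sums in M0 were 28.7 CPM in the control against 37.7 with regorafenib for IL4, and 82.7 against 80.7 for IFN-γ and LPS. The neutrophil, fibroblast and dendritic cell sums moved with M1 polarization as well, and in the M1 control they were 210, 24.7 and 32.0 CPM, against 110, 10.3 and 0.521 CPM in the M0 control. Their part in the results was not tested. Relative to the M0 control, all 8 markers of IFN-γ and LPS were called higher (2-fold or more) in the M1 control, and all 8 markers of IL4 in the M2 control. In bulk RNA, fewer cells of a type cannot be told apart from less RNA per cell.

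With 1 library per condition, a comparison of 2 libraries has no test. Each ratio below is the log2 ratio of counts scaled by TMM, a scaling that sets the bulk of the genes equal between libraries, with its 95% interval for counting error only. Replicates would vary by more. A gene was called where the ratio was at least 2-fold and a library of the pair held at least 10 counts. CPM is the count scaled by the size of the library after TMM. TPM divides by the length of the exons, without TMM, and is used where levels of different genes are compared. Ranks and shares are of counts and were not corrected for length. The 1 test available was edgeR's quasi-likelihood fit of state and treatment over all 6 libraries. Its residual spread, with 2 degrees of freedom, is the difference between the states in their response to regorafenib and not the spread between replicates, and its p-values were adjusted with Benjamini-Hochberg over 14110 genes.

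**Figure D1:**
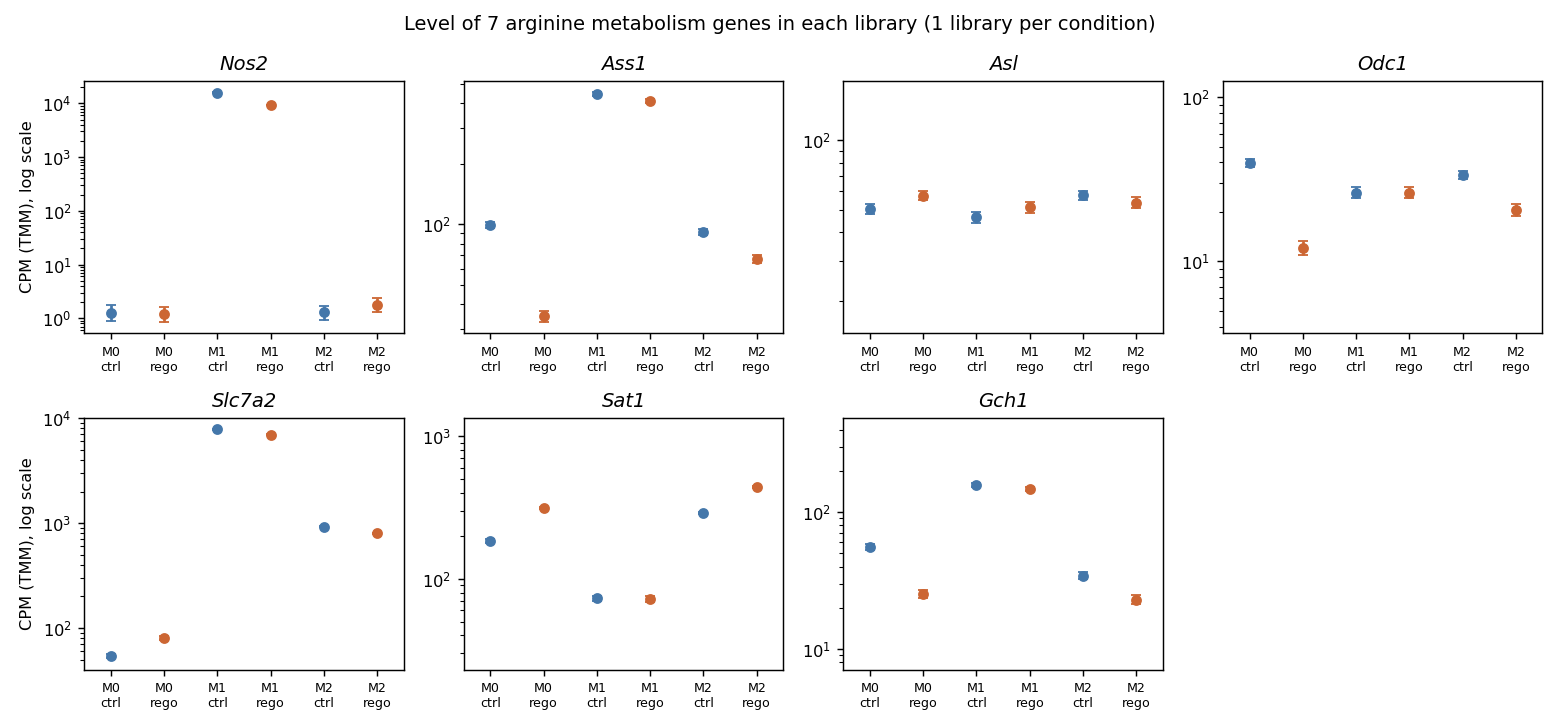
Level of each gene in the 6 libraries, in CPM after TMM scaling on a log axis (each panel has its own range), with blue points for controls, orange points for regorafenib and bars for the 95% counting interval. Nos2 is at 15894 and 9196 CPM in the M1 libraries and below 2 CPM in the other 4, Slc7a2 is highest in M1 and next in M2, and Odc1 and Gch1 are lower with regorafenib in M0 and M2.

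Nos2 had 39 counts in the M0 control, 40 in M0 with regorafenib, 410649 in the M1 control, 221627 in M1 with regorafenib, 47 in the M2 control and 50 in M2 with regorafenib. The M1 libraries stood apart from the other 4, among which the intervals of neighbouring levels overlapped. The log2 ratio of the M1 to the M0 control was 13.61 (13.16 to 14.10), and with regorafenib in both libraries it was 12.89 (12.44 to 13.37). Nos2 transcripts took 1.30% of all counts in the M1 control, where the gene ranked 5 among all genes by count, and 0.776% in M1 with regorafenib, where it ranked 7. Regorafenib thus went with a lower Nos2 level in M1, by 1.73-fold (log2 ratio −0.79, −0.80 to −0.78), which is under the 2-fold call. In M0 and M2 the level was between 1.21 and 1.79 CPM with and without the drug, and the log2 ratios of −0.07 (−0.74 to 0.61) and 0.47 (−0.13 to 1.08) had intervals that included 0.

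Slc7a2, through which arginine enters activated macrophages, had 1663 and 2644 counts in the M0 pair, 202074 and 168382 in the M1 pair, and 33699 and 22327 in the M2 pair, control first as for the genes that follow. It was highest in M1 and next in M2, with no overlap of neighbouring intervals. The log2 ratio to the M0 control was 7.17 (7.10 to 7.25) in M1 and 4.09 (4.02 to 4.16) in M2, so the transporter was higher in both polarized states. In the M1 control it took 0.642% of all counts and ranked 9 among all genes, and it ranked 12 with regorafenib. The drug ratios were small and not called, at 0.57 (0.48 to 0.66) in M0, −0.16 (−0.17 to −0.15) in M1 and −0.21 (−0.23 to −0.19) in M2. Since Nos2 was lower by more than Slc7a2 in M1, the share of Nos2 among their joint counts was 67.0% (66.9 to 67.1) in the control and 56.8% (56.7 to 57.0) with regorafenib, with exact Clopper-Pearson intervals. This share is taken within a library and needs no scaling, but it is of counts and also reflects the length of the exons. By TPM, Nos2 was at 8697 and Slc7a2 at 2067 in the M1 control, against 5082 and 1865 with regorafenib. The antisense gene Gm26584, which shares 4.86% of the 100-base stretches of Slc7a2, had at most 4 counts.

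The enzymes that rebuild arginine differed from each other. Ass1 had 3033 and 1145 counts in the M0 pair, 11474 and 9896 in the M1 pair, and 3349 and 1871 in M2. It was higher in M1 than in M0, by 4.50-fold among controls (log2 ratio 2.17, 2.11 to 2.23) and by 11.8-fold with regorafenib (3.56, 3.47 to 3.65). The larger ratio with the drug goes with the lower M0 level: regorafenib to control was −1.51 (−1.61 to −1.41) in M0, −0.46 (−0.54 to −0.37) in M2 and −0.11 (−0.15 to −0.07) in M1. Asl had 1549 and 1891 counts in the M0 pair, 1197 and 1234 in the M1 pair, and 2107 and 1502 in M2. Its highest level was 1.25-fold above its lowest. Intervals overlapped between levels next to each other in rank, but not between the M0 control and M0 with regorafenib. The drug ratio of Asl was 0.19 (0.09 to 0.28) in M0, 0.14 (0.03 to 0.26) in M1 and −0.10 (−0.20 to −0.01) in M2, none of them called. The gene Gm5424 shares 26.9% of the 100-base stretches of Ass1 and had from 76 to 728 counts, so the level of Ass1 is uncertain to the extent that reads of the shared stretches were left out of the counts.

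Odc1, at the entry to the polyamines, had 1213 and 400 counts in the M0 pair, 676 and 631 in the M1 pair, and 1229 and 573 in M2. The control level was above the regorafenib level in M0 by 3.25-fold (−1.70, −1.87 to −1.54) and in M2 by 1.64-fold (−0.72, −0.86 to −0.57), while the M1 pair had a log2 ratio of 0.00 (−0.16 to 0.16). Sat1, on the catabolic side, had 5664 and 10376 counts in the M0 pair, 1882 and 1740 in the M1 pair, and 10603 and 12383 in M2. Its direction was the reverse of that of Odc1: the level was higher with regorafenib by 1.71-fold in M0 (0.77, 0.72 to 0.82) and by 1.52-fold in M2 (0.61, 0.57 to 0.65), neither of them called, and the M1 interval included 0 (−0.01, −0.11 to 0.08). Sat1 was lower in M1 than in M0, by 2.53-fold among controls and by 4.36-fold with the drug. By TPM the M0 control held 40.6 for Odc1 and 233 for Sat1, against 12.1 and 386 with regorafenib. Several other genes share 10.1% of the 100-base stretches of Odc1, of which AW146154 (114 to 286 counts) and Gm7993 (97 to 270 counts) had the most counts.

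Gch1 had 1713 and 831 counts in the M0 pair, 4072 and 3563 in the M1 pair, and 1255 and 642 in M2. Like Nos2, whose cofactor it serves to make, it was highest in the M1 libraries, though by 2.83-fold over M0 among controls and 5.86-fold with regorafenib. The drug ratio was −1.15 (−1.27 to −1.03) in M0, −0.58 (−0.72 to −0.44) in M2 and −0.09 (−0.16 to −0.03) in M1. The M0 and M2 libraries with regorafenib had overlapping intervals.

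**Figure D2:**
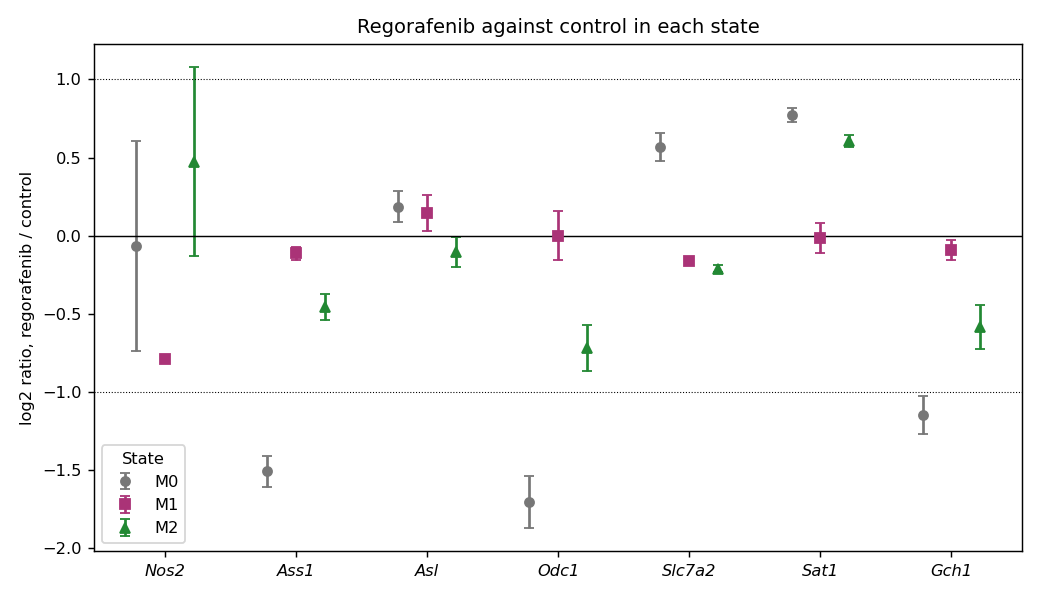
Log2 ratio of regorafenib to control for each gene in M0 (circles), M1 (squares) and M2 (triangles), with 95% counting intervals and dotted lines at 2-fold. Ass1, Odc1 and Gch1 lie below the lower line in M0 only, and all other points lie between the lines.

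Counted over the members, regorafenib in M0 gave 0 calls higher and 3 lower (Ass1, Odc1, Gch1) of 7 genes, each with at least 10 counts, beside 9.47% of all genes higher and 10.9% lower. In M1, 0 were called higher and 0 lower of 7, beside 1.76% and 3.46% of all genes. In M2, 0 were higher and 0 lower of 7, beside 6.15% and 5.07%. The median log2 ratio of the members was −0.07 in M0, −0.09 in M1 and −0.21 in M2, against 0.00, −0.02 and −0.03 over all genes. Genes in total called with the drug numbered 2851 in M0, 701 in M1 and 1551 in M2. Across the 3 states together, none of the 7 members and 0 of all 14110 genes (0%) passed the edgeR fit, in which 1654 genes had an unadjusted p under 0.05. DESeq2 passed 297 genes. With the M1 libraries left out, 619 genes passed, none of them a member. With the M0 or the M2 libraries left out instead, 0 genes passed.

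Polarization to M1 separated 5 of the 7 members from M0. In M1 against M0 among controls, 4 members were called higher (Nos2, Slc7a2, Ass1 and Gch1) and 1 lower (Sat1) of 7, beside 17.4% and 19.7% of all genes. With regorafenib in both libraries, 5 were higher, the same 4 and Odc1, and Sat1 was again lower, beside 16.3% and 21.6%. The calls of Odc1 depended on the scaling: with library totals its log2 ratio was 0.70 with regorafenib (1.11 with TMM) and no longer called, and −1.03 among controls (−0.59 with TMM) and called lower. The edgeR fit over both treatments passed 36.6% of all genes for M1 against M0, and 5 of 7 members. Nos2 rose by 13.27 on the log2 scale (adjusted p = 0.000205), Slc7a2 by 6.79 (adjusted p = 0.000311), Ass1 by 2.84 (adjusted p = 0.00287) and Gch1 by 2.02 (adjusted p = 0.00339), and Sat1 fell by 1.72 (adjusted p = 0.00361). Asl (−0.14, adjusted p = 0.538) and Odc1 (0.24, adjusted p = 0.681) did not pass. Scaling by library totals in place of TMM shifts the median of all genes in this comparison from −0.05 to −0.49 among controls and from −0.09 to −0.51 with regorafenib, and the called genes that were higher went from 46.8% to 30.3% and from 43.1% to 27.7%.

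In M2 against M0 among controls, 1 member was higher (Slc7a2) and 0 lower of 7, beside 4.69% and 7.61% of all genes. With regorafenib in both libraries the count was the same, beside 4.41% and 5.18%. For Slc7a2 the ratio was 4.09 without and 3.31 (3.26 to 3.37) with the drug. The edgeR fit passed 0.22% of all genes (28 higher and 3 lower), among them Slc7a2, which rose by 3.69 (adjusted p = 0.0208). These comparisons share the M0 libraries with those of M1.

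**Figure D3:**
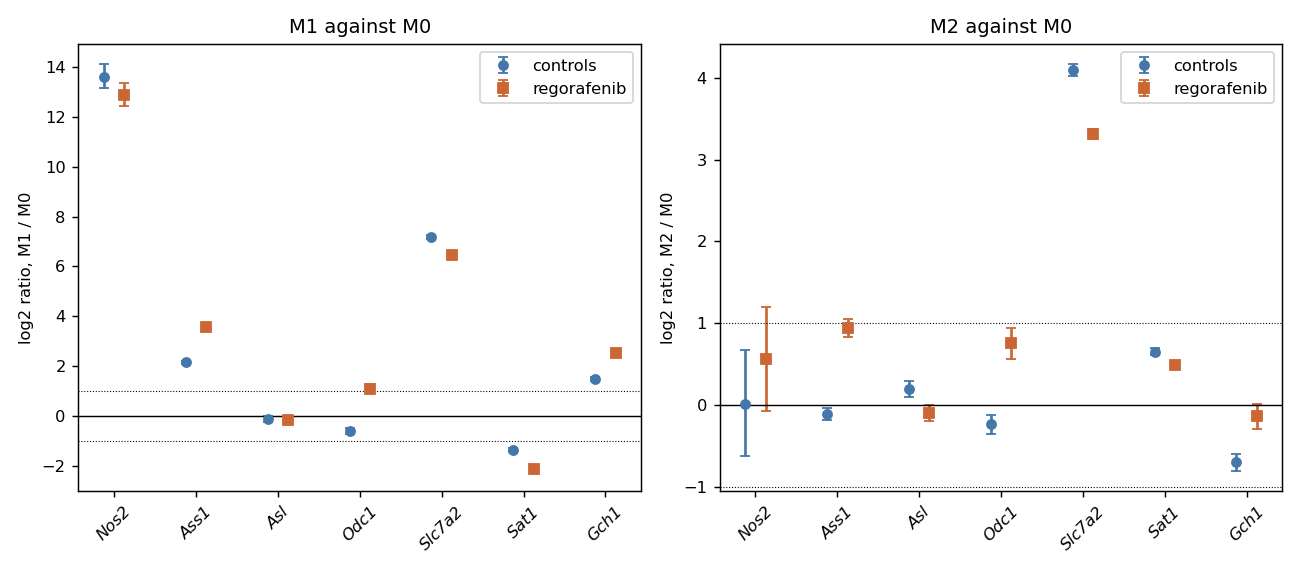
Log2 ratio of M1 to M0 (left) and of M2 to M0 (right) for each gene, among controls (blue circles) and among libraries with regorafenib (orange squares), with 95% counting intervals and dotted lines at 2-fold. The M1 ratio of Nos2 is near 13 in both, and Slc7a2 is the only gene above the upper line in both panels.

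Another 53 genes of arginine transport, the urea cycle, nitric oxide synthesis and its inhibitors, the nitric oxide receptor, tetrahydrobiopterin, polyamines, proline and creatine were listed around the members. The urea cycle genes Cps1, Otc and Nags had at most 2 counts in a library, while Slc25a15, the mitochondrial ornithine carrier, had from 93 to 442. Nos1 (1 to 15 counts) and Nos3 (2 to 13 counts), the other nitric oxide synthases, were low in all 6 libraries.

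With regorafenib in M0, 1 of these genes was higher and 9 were lower of 41 with enough counts, beside 9.47% and 10.9% of all genes, with a median log2 ratio of −0.36 against 0.00 over all genes. Of the 15 polyamine genes, 5 were lower: Srm, spermidine synthase (1069 to 347 counts, log2 ratio −1.73), Amd1 (2282 to 1005, −1.28) and its close copy Amd2 (97 to 49, −1.09), whose shared reads are not counted for either gene, Azin1, the antizyme inhibitor that protects ornithine decarboxylase (9213 to 4317, −1.20), and Sms, spermine synthase (2910 to 1547, −1.01). These genes are on the synthesis side with Odc1. The 1 that was higher was Atp13a2, a lysosomal polyamine exporter (7035 to 16838 counts, 1.16). Outside the polyamines, the arginine transporter Slc7a1 went from 2286 to 651 counts (−1.91), the creatine kinase Ckb from 12707 to 5196 (−1.39) and the proline enzyme Pycr1 from 20 to 1 (−4.42, −9.80 to −1.78). The last was Nos1, with 15 and 8 counts and an interval that included 0 (−2.45 to 0.32). Its call was lost with library totals and with the upper quartile, the latter of which also lost Sms (−0.93), and Paox, polyamine oxidase (229 to 489 counts), was called higher under both (1.01 and 1.07).

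In M2 the drug comparison gave 0 higher and 8 lower of 42, beside 6.15% and 5.07% of all genes, and 34 of the 42 had a log2 ratio below 0, with a median of −0.43 against −0.03 over all genes. Srm (1328 to 443 counts, −1.20) and Azin1 (14252 to 5436, −1.01) were lower again, as was Ckb (15400 to 4910, −1.26). Slc25a13, the mitochondrial aspartate and glutamate carrier that supplies aspartate to Ass1, went from 4957 to 1880 counts (−1.01), and Ddah2, which breaks down inhibitors of nitric oxide synthase, from 287 to 98 (−1.17). The calls of Azin1 and Slc25a13 lay at the 2-fold limit and were lost under the other 3 scalings, which left 6 lower (log2 ratios of −0.93 to −0.99 for Azin1 and −0.938 to −0.997 for Slc25a13). Pycr1 (19 to 2 counts), Nos3 (13 to 2) and Slc7a3 (14 to 5) rested on few counts. In M1, none was lower and 2 were higher of 41, beside 3.46% and 1.76% of all genes, with a median of 0.06 against −0.02, and both had under 20 counts: Gchfr, the feedback regulator of GTP cyclohydrolase (4 to 19), and Pycr1 (6 to 19). Srm had a log2 ratio of 0.37 in M1 and Azin1 of −0.13. None of 41 listed genes passed the edgeR fit for regorafenib. With the M1 libraries left out, which leaves 1 degree of freedom, 0 rose and 4 fell of 40, where 4.57% of all genes passed in either direction: Srm (−1.46, adjusted p = 0.0417), Ckb (−1.32, adjusted p = 0.0306), Azin1 (−1.10, adjusted p = 0.0347) and Slc25a13 (−0.91, adjusted p = 0.0411). With the M0 or the M2 libraries left out instead, 0 of 41 passed, as did 0 of all genes.

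**Figure D4:**
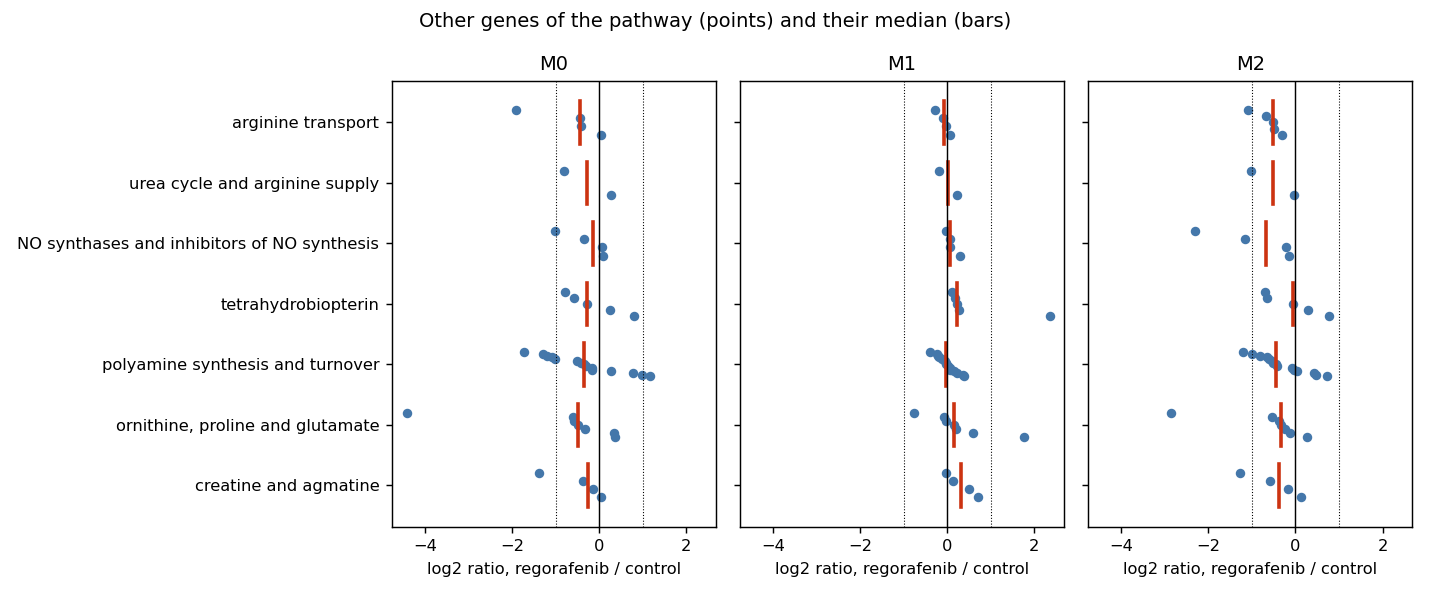
Log2 ratio of regorafenib to control in M0, M1 and M2 for the listed genes around the members with at least 10 counts in a library of the pair (blue points), by group, with the group's median as a red bar and dotted lines at 2-fold. In M0 and M2 most points lie left of 0, with medians over all groups of −0.36 and −0.43, while in M1 the median is 0.06.

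In M1, 4 of the listed genes were higher and 19 lower than in M0 of 42 among controls, beside 17.4% and 19.7% of all genes, with a median log2 ratio of −0.85 against −0.05 over all genes. The number lower depended on the scaling: it was 24 with library totals (median −1.29) and 15 with the upper quartile (median −0.71). In the edgeR fit over both treatments 4 of 41 rose and 15 fell, where 36.6% of all genes passed in either direction. Those that rose were Smox, spermine oxidase (2.02, adjusted p = 0.00114), Slc3a2, the heavy chain of several amino acid transporters (1.55, adjusted p = 0.00211), Azin2 (1.39, adjusted p = 0.0272) and Ddah1 (2.24, adjusted p = 0.0341, at most 12 counts in a library). Ddah1 did not pass with DESeq2 (adjusted p = 0.178), with library totals (0.0529) or without the filter (0.0579), and Azin2 did not pass with library totals (0.0630). Among those that fell were Ckb (−3.77, adjusted p = 0.00200), Gchfr (−2.41, adjusted p = 0.0201), Paox (−2.61, adjusted p = 0.00375), Sms (−1.51, adjusted p = 0.00889) and Slc25a15 (−1.53, adjusted p = 0.00569). The others that fell were Aldh18a1, Atp13a3, Ddah2, Gamt, Nostrin, Prodh, Pycrl, Qdpr, Slc25a13 and Slc7a7. In the edgeR fit with library totals, 2 of 41 rose and 19 fell. With Gch1 higher and Gchfr lower, the enzyme and its regulator moved in opposite directions in M1. Gchfr rested on few counts, 65 and 83 in the M0 pair and 4 and 19 in the M1 pair. With regorafenib in both libraries, 7 were called higher and 10 lower of 41, beside 16.3% and 21.6% of all genes, with a median of −0.21. With library totals these were 4 higher and 17 lower, with a median of −0.62, and Azin2, Dhps and Gatm were no longer called higher. Against M0, M2 gave 2 higher (Azin2, from 56 to 256 counts, and Slc7a3, from 4 to 14, with an interval that included 0) and 2 lower of 43 among controls, Smox (from 1514 to 722 counts) and Nos1 (from 15 to 7, with an interval that included 0), beside 4.69% and 7.61% of all genes, and 0 higher and 1 lower (Paox) of 39 with regorafenib, beside 4.41% and 5.18%. None of 41 passed the edgeR fit for M2. With the upper quartile Slc25a13 was a further call higher among controls (log2 ratio 1.04). DESeq2 passed Smox as lower, and the fit without the filter passed Smox as lower and Azin2 as higher.

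Genes with the pattern most like Nos2 were sought among 9693 genes with at least 10 CPM in a library, by the root mean square difference of centred log2(CPM + 1) values over the 6 libraries. Nearest to Nos2 were Il1b (difference 0.299), Il1a (0.388), Ptgs2 (0.679), Saa3 (0.848) and Ccl5 (0.860), against a median of 5.84. Il1b, which encodes interleukin-1β, had 609592 and 595706 counts in the M1 pair and at most 98 elsewhere, and Il1a, which encodes interleukin-1α, had 283382 in the M1 control and 384772 with regorafenib. With regorafenib in M1 the log2 ratio was above 0 for 4 of these 5 genes, at 0.54 for Il1a, 0.52 for Ccl5, 0.17 for Ptgs2 and 0.07 for Il1b, and below 0 for Saa3 (−0.43), as it was for Nos2 (−0.79). None of these ratios reached 2-fold.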

How the data were processed

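RNA from the 6 BMDM conditions was sequenced as stranded mRNA libraries with paired reads of 100 bases. The authors deposited counts per gene that were not normalized. By the submitters' processing notes and the methods, adaptors were removed with cutadapt 2.4 and reads were mapped to GRCm38 and counted with STAR 2.7.2a. Which strand was counted is not given in the sources used here, so overlapping genes on opposite strands may share reads. STAR does not count reads that map to several places, which lowers the counts of genes with close copies.

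Gene names came from Gencode M21, which matched 53229 of 54446 IDs with version and 1180 without. Ratios were computed in Python 3.11.15 (scipy 1.17.1) from counts scaled with TMM (edgeR 4.0.16, factors 0.820 to 1.12), with a count of 0 replaced by 0.5, a floor of 3 counts and a conditional exact binomial interval at 95%. Depth (25359309 to 34898342 counts) sets these intervals, which cover counting error only. edgeR's quasi-likelihood fit (state and treatment, filterByExpr, threshold 0.05) was the only test, and DESeq2 1.42.0 was an alternative. The study used NOISeq for data without replicates, and its simulated replicates are left out here. Alternatives were other scalings, pseudocounts, filters and a 4-fold call. Named genes were the members, listed pathway genes (those called first, by size of the ratio), markers and the 5 genes nearest to Nos2. Of the 9 genes chosen by name, 2 are not reported here, nor is 1 further gene of the pathway lists. The members and lists were chosen with earlier results of these data known.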

Additional observations from a re-analysis of the deposited data

Results flagged for a closer look

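The log2 ratio of regorafenib to control had opposite signs in different states, with counting intervals that excluded 0 in both, for 2 genes, Slc7a2 and Asl. Nos2, Odc1 and Sat1 also had ratios of both signs, but in each such pair of states an interval included 0. Each state has 1 pair of libraries, so these differences were not tested. For Slc7a2 the log2 ratio was 0.57 in M0 and −0.16 in M1, a difference of −0.73, and −0.21 in M2, which differed from M0 by −0.777. For Asl it was 0.19 in M0, 0.14 in M1 and −0.10 in M2, so that M2 differed from M0 by −0.29 and from M1 by −0.248. For Asl this held with TMM scaling only: the M2 ratio was −0.03 with library totals, −0.09 with DESeq2 size factors and −0.06 with the upper quartile, with intervals that included 0. For Slc7a2 the signs and the intervals on either side of 0 were kept under all 4 scalings. None of the ratios of Slc7a2 and Asl reached 2-fold.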

How the results depend on the processing

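Pairs of libraries share a state, which the model of state and treatment takes into account, and the labels give no replicate numbers by which to pair them further. Counts of called genes depended on the threshold and on the low counts. At 4-fold, 746 genes were called for regorafenib in M0, 125 in M1 and 338 in M2, and the members called went from 3 to 0 for regorafenib in M0, and for M1 against M0 from 5 to 3 among controls and from 6 to 5 with regorafenib. For M1 against M0 they were 2645 among controls (5263 at 2-fold) and 2607 with regorafenib (5367), and for M2 against M0, 415 (1700) and 352 (1328). With no filter other than 1 count in the pair, the numbers were 6688, 4139 and 5275 for regorafenib in M0, M1 and M2, 9577 and 9484 for M1 against M0, and 5387 and 4953 for M2 against M0. With at least 100 counts they were 1594, 176, 655, 3459, 3519, 863 and 492 in the same order. Adding 1 CPM to both values gave 1495, 154 and 565 for regorafenib, and 780 and 451 for M2 against M0. Without the filter, 60.7% of the genes called in M1 with regorafenib were higher, against 33.7% with it. In the model of state and treatment, DESeq2 passed 412 genes for M2 against M0 (31 with edgeR) and 297 for regorafenib (0 with edgeR), the fit without the filter 408 and 333, and the fit without the M1 libraries 619 for regorafenib. The fit without the M0 libraries and that without the M2 libraries each passed 0 for regorafenib. No member passed for regorafenib in any of these fits. Asl passed for M1 with library totals (−0.57, adjusted p = 0.0309). The other 83 of 84 fitted values of members kept their side of the threshold. Of 196 ratios of members under alternatives, 34 moved by more than their interval and 5 changed sign, none of which was a called ratio. The cause was not tested.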
